A study of Homo sapiens with 9 samples.

Results

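The mitochondrial genome carries 37 genes, and the nuclear chromosomes carry inactive copies of stretches of it. Both were taken from GENCODE release 29 by name: the genes named MT- on the mitochondrial chromosome (37), and the nuclear pseudogenes whose symbol joins MT, a mitochondrial gene name, P and a number, such as MTND1P23 or MTCO1P12 (394). Together they are 431 of 58780 annotated genes. All 394 copies are named for the 13 protein genes, and none by this rule for a ribosomal or transfer RNA (rRNA, tRNA).

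The series holds 9 small RNA libraries of MDA-LM2, a metastatic line of human breast cancer cells given short interfering RNA. By their labels they are 2 libraries with knockdown of DCGR8 (so spelled; the gene symbol is DGCR8), 2 of DROSHA, 2 of TARBP2 and 1 of DICER, all genes of microRNA processing, and 2 with the control siRNA. Only a deposited list could be analysed, of 108742 loci on hg38. It is named for the TCGA breast cancer cohort and the peak caller Piranha, and no column of it belongs to any of the libraries. Whether the cohort's samples were all tumours, and how many entered, is not given in the sources used here. Each locus is a stretch of 1 strand, drawn on a grid of 50 bases and carrying the same score, so neither a level, a depth nor a knockdown effect can be read from it. There are no replicates and no test was run: shares carry exact Clopper-Pearson 95% intervals, which cover counting error only and take copies as independent, which copies in 1 insertion are not.

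Mitochondrial DNA is transcribed from both strands into RNAs that run over many genes, and the tRNAs between the messages mark the places where enzymes cut them apart. One strand carries most genes, both rRNAs among them, while the other carries ND6 and a few tRNAs, so that much of its transcript is antisense RNA that is normally degraded. Fragments of mitochondrial DNA have also entered the nuclear chromosomes during evolution. Old insertions have drifted far from the mitochondrial sequence, while young ones can be almost identical to it, and short reads from the 2 places are then hard to tell apart.

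Sequence pairs show how far such copies differ. Each pseudogene stretch of 50 bases from the GENCODE transcripts (GRCh38, strand of the pseudogene) stands above the mitochondrial stretch it aligns with, 5′ to 3′, and capitals mark the bases that differ. For MTCO1P53 (plus strand), a copy of the cytochrome oxidase gene MT-CO1 on chromosome X, the stretch under a locus differs at 2 positions, and the least alike grid stretch without a locus at 5.
MTCO1P53 under a locus, chrX:126471951-126472000: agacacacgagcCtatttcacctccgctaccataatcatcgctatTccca
MT-CO1, chrM:6800-6849: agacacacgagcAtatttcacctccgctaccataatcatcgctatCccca
MTCO1P53 with no locus, chrX:126472051-126472100: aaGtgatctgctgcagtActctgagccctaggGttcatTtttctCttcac
MT-CO1, chrM:6900-6949: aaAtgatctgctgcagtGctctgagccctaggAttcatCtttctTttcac

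MTCYBP16 (minus strand), a more diverged copy of the cytochrome b gene MT-CYB on chromosome 4, has 1 locus. That stretch holds 38 bases in a row without a difference, the longest such run of the whole pseudogene, and 5 differences in all. The adjoining stretch, the least alike grid stretch of this copy without a locus, differs at 18 positions. Its longest run without a difference is 8 bases.
MTCYBP16 under a locus, chr4:64608151-64608200: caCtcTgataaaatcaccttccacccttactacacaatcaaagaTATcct
MT-CYB, chrM:15386-15435: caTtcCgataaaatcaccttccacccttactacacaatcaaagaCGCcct
MTCYBP16 with no locus, chr4:64608101-64608150: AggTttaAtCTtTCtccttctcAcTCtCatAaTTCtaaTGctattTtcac
MT-CYB, chrM:15436-15485: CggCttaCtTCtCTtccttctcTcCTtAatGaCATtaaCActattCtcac

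Another copy is MTND5P10 of MT-ND5 on chromosome 5 (minus strand). Its stretch under a locus differs at 7 positions with a longest run of 13 bases, and is thus less like the mitochondrial gene than the MTCO1P53 stretch with no locus, whose longest run is 14. Its least alike stretch without a locus differs at 11 positions. In each printed copy the stretch without a locus was picked as the least alike, so its excess of differences follows in part from that choice.
MTND5P10 under a locus, chr5:100047451-100047500: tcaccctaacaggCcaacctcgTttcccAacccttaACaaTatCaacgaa
MT-ND5, chrM:13622-13671: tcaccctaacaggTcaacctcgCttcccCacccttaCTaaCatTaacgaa
MTND5P10 with no locus, chr5:100047151-100047200: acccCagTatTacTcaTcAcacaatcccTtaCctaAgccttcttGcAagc
MT-ND5, chrM:13922-13971: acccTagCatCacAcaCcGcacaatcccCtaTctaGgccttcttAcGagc

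Small RNA loci lay on both strands of the mitochondrial genome, in very different patterns. On the plus strand, which carries 28 genes, 3 loci covered 16149 bases (97.5% of the genome). One of them, of 15700 bases (551 to 16250), spanned all 28 of these genes without a break. It therefore cannot say which of them gave small RNAs. The 2 others, at 2 to 400 and 16351 to 16400, lie in the control region, which holds promoters but no gene of the annotation. On the minus strand, 28 loci covered 9899 bases (59.7%), with a median width of 150 bases and a range of 50 to 3500.

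**Figure D1:**
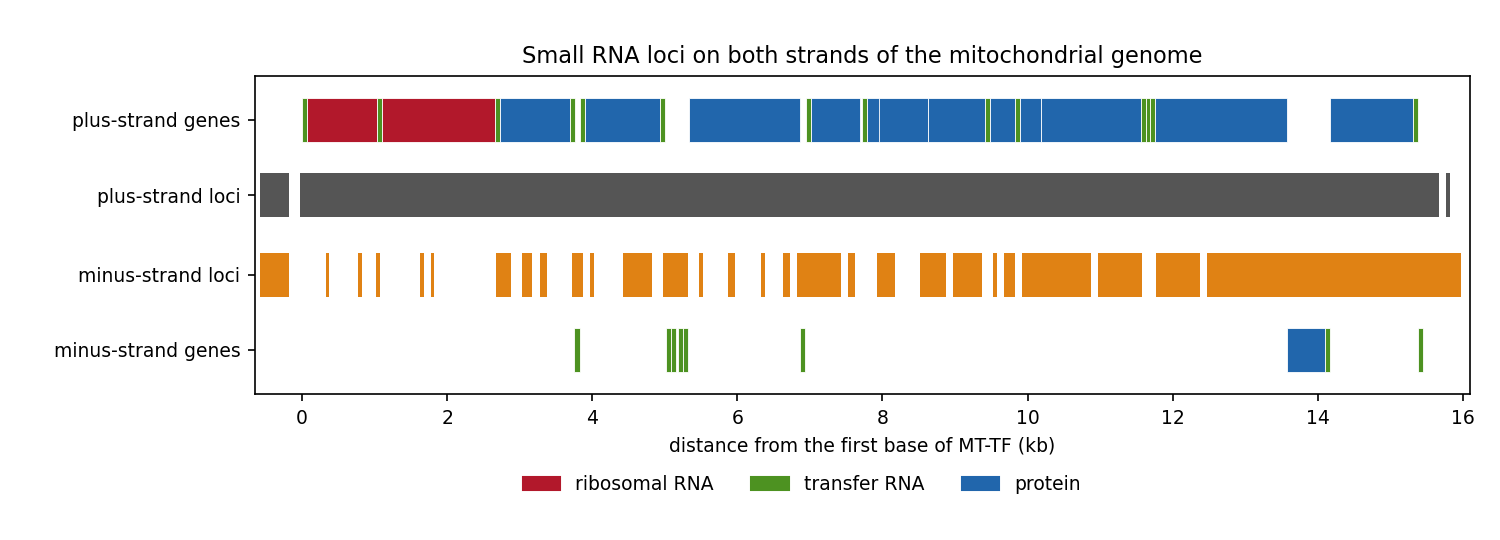
Genes and small RNA loci of each strand of the mitochondrial genome, by distance in kb from the first base of MT-TF. The plus-strand loci form 1 block of 15700 bases over all plus-strand genes, while the 28 minus-strand loci are sparse over the rRNA genes and merge into a block of 3500 bases at the right end.

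All 9 minus-strand genes lay wholly under minus-strand loci. They are MT-ND6, which encodes a subunit of complex I, the first enzyme of the respiratory chain, and 8 tRNA genes. MT-TA, MT-TN, MT-TC and MT-TY, the tRNAs for alanine, asparagine, cysteine and tyrosine, shared a single locus of 350 bases (5551 to 5900), whose ends fell close to those of the tRNA cluster (5587 to 5891). MT-TQ (tRNA for glutamine) lay under a locus of 150 bases, and MT-TS1 (a serine tRNA) under one of 600. The other 3 genes, MT-ND6, MT-TE (glutamate) and MT-TP (proline), shared the widest minus-strand locus, 13051 to 16550. As for the plus strand, a shared locus does not tell its genes apart.

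Minus-strand loci also lay antisense to most plus-strand genes. Over the 12 plus-strand protein genes they covered 7334 of 10870 bases (67.5%), and every one of these genes was met, at a median of 66.5% of its length. MT-CYB, the mitochondrial subunit of complex III, was covered over its full length, and the complex I genes MT-ND5 (93.7%), MT-ND4 (92.7%) and MT-ND4L (89.6%) nearly so. Those of the complex IV (cytochrome oxidase) subunits differed among themselves: antisense loci covered 82.1% of MT-CO3 and 75.3% of MT-CO2, but 22.4% of MT-CO1, the lowest value of the 12. The ATP synthase genes MT-ATP6 (48.6%) and MT-ATP8 (34.8%) and the complex I genes MT-ND3 (57.8%), MT-ND2 (43.2%) and MT-ND1 (41.2%) lay between.

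The rRNA genes had the least antisense coverage of the 3 kinds of plus-strand gene. Antisense loci covered 10.6% of MT-RNR1, the small-subunit rRNA of 954 bases, and 6.41% of MT-RNR2, the large-subunit rRNA of 1559. The longest minus-strand stretch without a locus, 850 bases (2401 to 3250), lies mostly in MT-RNR2. Of the 14 plus-strand tRNA genes, 8 met an antisense locus, which covered 37.6% of the bases of all 14, and 6 did not (MT-TF, MT-TK, MT-TG, MT-TR, MT-TS2 and MT-TL2). MT-TS2 and MT-TL2 lie side by side with MT-TH, of which 18.8% was covered, between antisense loci on MT-ND4 and MT-ND5. MT-TD and MT-TT were covered in full, yet each next to a minus-strand tRNA gene, MT-TS1 and MT-TP, whose locus also covers them.

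**Figure D2:**
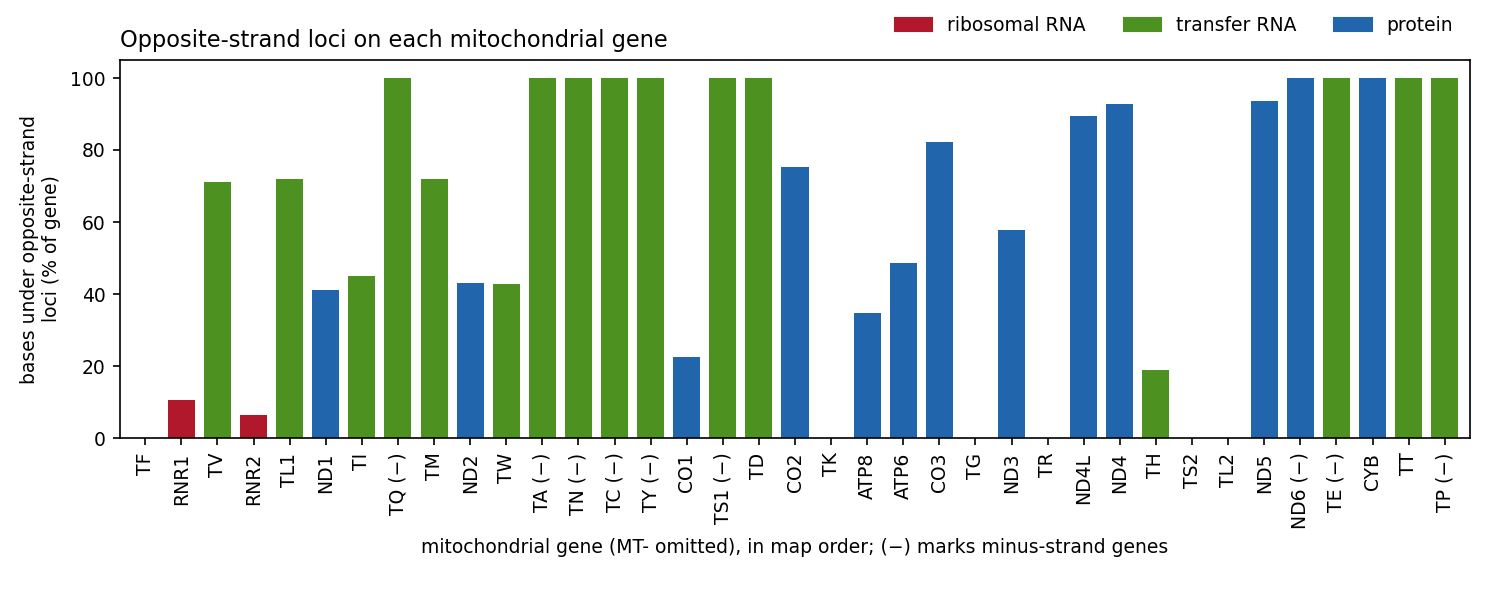
Share of each mitochondrial gene's bases under loci of the opposite strand, in map order; (−) marks the 9 minus-strand genes, whose opposite strand lies under the plus-strand block. Among plus-strand protein genes the values run from 22.4% for MT-CO1 to 100% for MT-CYB, and both rRNA genes are at 10.6% or lower.

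In the nucleus, loci met a minority of the copies. A locus on the strand of the pseudogene lay on 78 of 394 (19.8%, 16.0 to 24.1), one on the opposite strand on 44 (11.2%, 8.23 to 14.7), and one on either strand on 94 (23.9%, 19.7 to 28.4). Among the 13818 other pseudogenes of the same annotation classes the shares were 8.47% for the same strand, 4.2% for the opposite strand and 11.2% for either. By class, processed copies stood at 20.9% for the same strand and 25.8% for either, against 6.89% and 8.51% of other processed pseudogenes. Unprocessed copies stood at 18.3% (12.8 to 25) for the same strand, 8.28% for the opposite and 21.3% (15.4 to 28.3) for either. Other unprocessed pseudogenes, with a median span of 2537 bases against 703, stood at 13.4%, 10.5% and 19.4%. Over both classes the copies had a median span of 680 bases and the other pseudogenes one of 729. In each length range the same-strand share was higher among the copies. It was 15.6% against 3.91% up to 500 bases, 19.1% against 5.95% from there to 1000, and 25% against 15.2% above. Without the 6 insertions that held 5 or more loci, chosen after their values were seen, 46 of 360 copies had a same-strand locus (12.8%, 9.51 to 16.7).

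The bases covered were compared too. Same-strand loci covered 14092 of 315137 bases of the copies (4.47%) and 0.165% of those of other pseudogenes, whose spans include long introns. The chromosome 1 run, under 1 locus, supplied 5015 of these bases: without it the copies stood at 2.93%, and without the 6 insertions with 5 or more loci at 1.17%. Among processed pseudogenes the values were 4.22% for the copies and 0.350% for the others. Of the 78 copies with a same-strand locus, 61 had only 1, and for 42 of these it was a single bin of 50 bases. In all, 165 loci lay on the copies, of which 50 (30.3%, 23.4 to 37.9) were at least 100 bases wide, against 4.37% of all loci in the list and 6.51% of those on other pseudogenes. In the 6 insertions with 5 or more loci 40 of 96 were that wide (41.7%), and in the rest 10 of 69 (14.5%, 7.17 to 25).

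The copies sat in 141 insertions when members within 20 kb of each other were joined, and the loci were concentrated in few of them. Of these insertions, 50 held a locus, 29 of them a single one. The 6 insertions with 5 or more held 96 of the 165 loci (58.2%), on 33 of their 34 pseudogenes. Of these insertions, 3 lie on chromosome 5, where 21 of 28 copies had a same-strand locus. On chromosome 2, which has the most copies, 13 of 77 did, and on chromosome 9 none of 21 did.

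**Figure D3:**
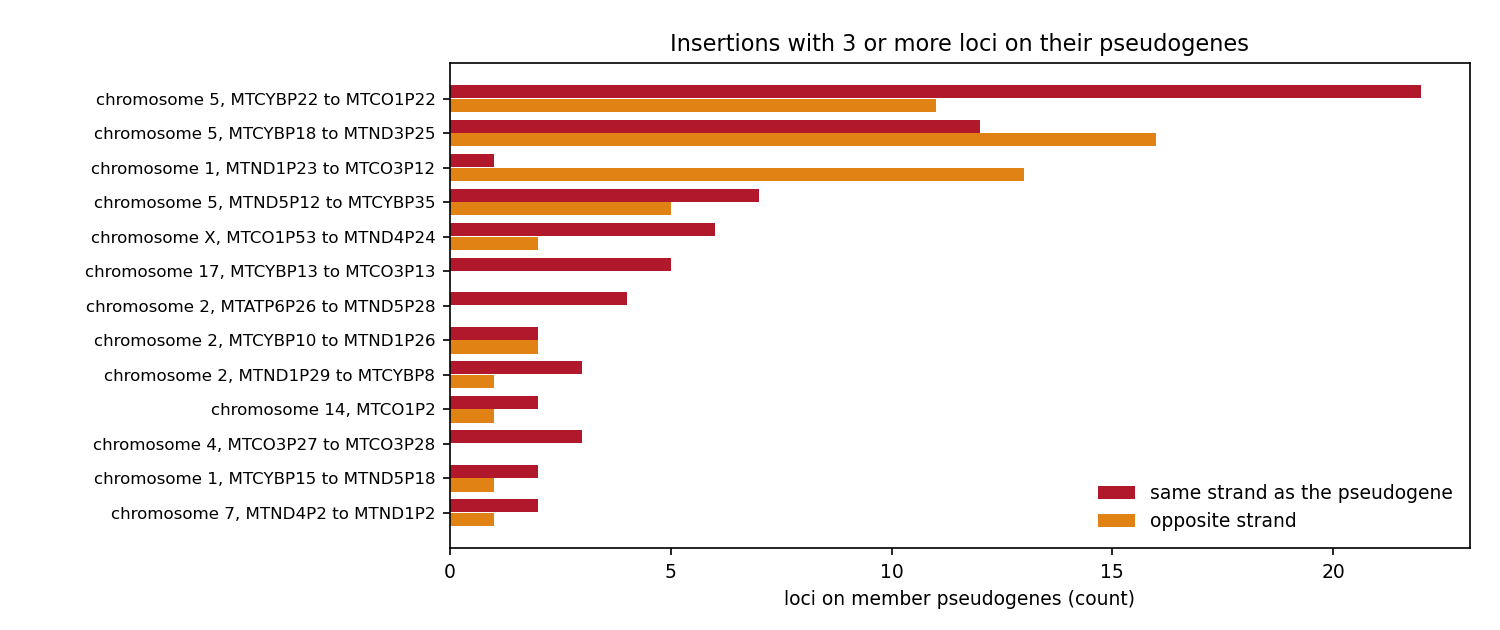
Number of loci on member pseudogenes, by strand relative to the pseudogene, in the 13 insertions with 3 or more loci. A locus that spans pseudogenes of both directions counts on both sides, so the bars of the chromosome 5 insertions sum to more than their loci.

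The largest number of loci, 32, lay on the 10 pseudogenes from MTCYBP22 to MTCO1P22 (chromosome 5, 100045928 to 100055045). There the complex I copy MTND5P10 and the complex IV copy MTCO1P22 had 5 same-strand loci each, and MTND4P35 had 4, covering 13%, 29% and 34.5% of them. A second insertion on chromosome 5, from MTCYBP18 to MTND3P25 (134923303 to 134928527), held 26 loci on 6 pseudogenes. Its MTND5P11 had more same-strand loci than any other copy, 7, and 6 on the opposite strand, which covered 39.3% and 44.3% of its 1812 bases. MTND4P12 next to it was covered over 92.7% by 2 same-strand loci, one of them 1450 bases wide.

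The third on chromosome 5, from MTND5P12 to MTCYBP35 (94567461 to 94570676), held 11 loci on 3 pseudogenes. The short insertion on chromosome X, of MTCO1P53, MTND4LP1 and MTND4P24 (126471705 to 126473281), held 8. MTCO1P53, whose sequence is printed above, had 4 same-strand loci on 36.2% of its 699 bases. The sixth, on chromosome 17 from MTCYBP13 to MTCO3P13, held 5 loci on 4 of its 5 members and 20 more between members. Of its 11776 bases, loci covered 1900 on the plus strand and 500 on the minus strand. Among lone copies, 4 were covered over more than 80% by same-strand loci. They were MTATP8P2 on chromosome 2 (100% of 202 bases), MTCO1P40 on chromosome 17 (97.3% of 625), MTCO2P2 on chromosome 18 (88.9% of 225) and MTCO1P2 on chromosome 14 (85.3% of 703).

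Several long copies had no locus on either strand. Among them were MTND4P31 on chromosome X, which spans 4100 bases with a transcript of 1343, MTND2P19 on chromosome 2 (a span of 2718 and a transcript of 1012) and MTCYBP21 on chromosome 21 (2588 and 1113). Identity to the mitochondrial sequence over the aligned part was 74.7% for MTND4P31, 73.5% for MTND2P19 and 70.9% for MTCYBP21.

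The run on chromosome 1 stood apart. Its 7 pseudogenes, MTND1P23, MTND2P28, MTCO1P12, MTCO2P12, MTATP8P1, MTATP6P1 and MTCO3P12 (629062 to 634922, plus strand), keep the gene order of the mitochondrial genome. A single same-strand locus of 5800 bases (629101 to 634900) covered 98.8% of their bases, much as 1 block covers the mitochondrial plus strand. MTCO1P12, at 1543 bases the longest of the 7, lay under it in full, as did MTND2P28 (1044 bases). Opposite-strand loci were on 6 of the 7, all but MTND1P23.

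The antisense loci of the chromosome 1 run fell where the mitochondrial genome has its own. Placed on the mitochondrial map through the alignment of the pseudogenes, the run matches bases 3892 to 9753, with an offset that shifts by no more than 2 bases over its length. It held 14 antisense loci, and each of them (14 of 14) overlapped a minus-strand locus of the mitochondrial genome. Of the antisense bases of the run, 1682 of 1822 (92.3%) fell under mitochondrial minus-strand loci, which cover 48.0% of the stretch. In the other direction, 11 of 14 mitochondrial minus-strand loci in the stretch met one of the run. A locus of 350 bases (630751 to 631100) overlaps, on that map, the mitochondrial locus over the cluster from MT-TA to MT-TY, and another (632601 to 632950) overlaps the one over MT-TS1. How the authors placed reads that match both places is not given in the sources used here, so the list does not tell which copy gave the reads.

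**Figure D4:**
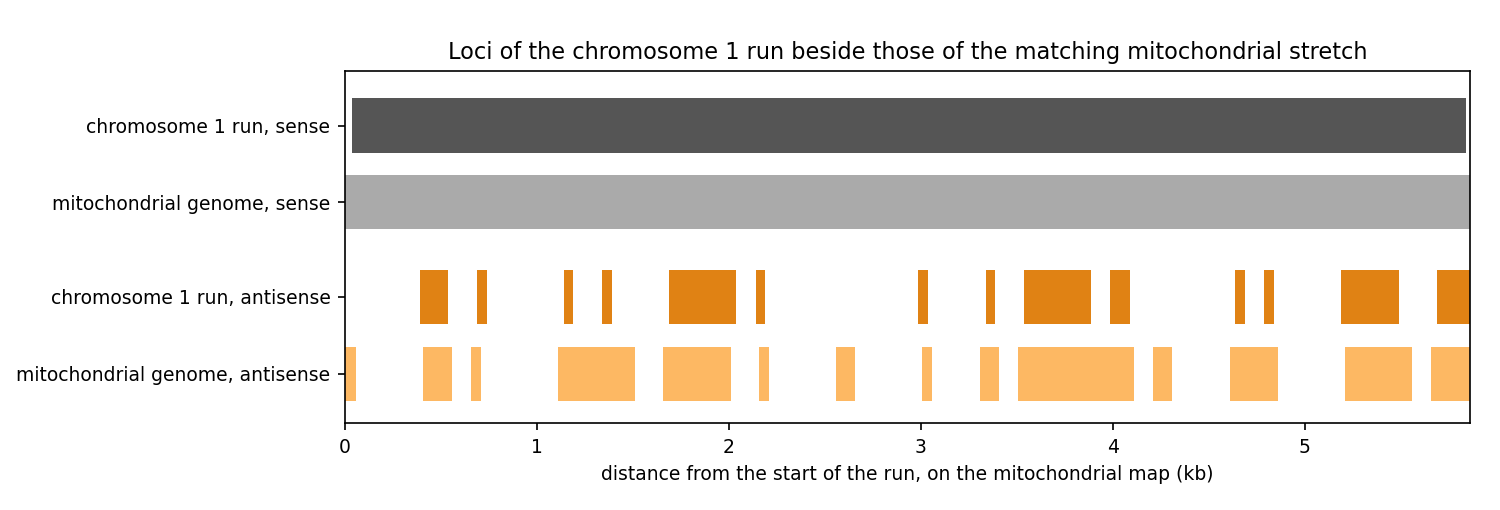
Loci of the chromosome 1 run of 7 pseudogenes and of the matching mitochondrial stretch, by distance in kb from the start of the run on the mitochondrial map, for the sense strand (above) and the antisense strand (below). The 14 antisense loci of the run each overlap a mitochondrial one, and 3 of the 14 mitochondrial ones have no counterpart.

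On chromosome 5, 2 insertions were placed on the map in the same way, and more of it was under antisense loci to begin with. For the one from MTCYBP18 to MTND3P25, 14 of 14 antisense loci overlapped a mitochondrial minus-strand locus, and 97.1% of their bases were shared, where 90.4% of the stretch is covered. For the one from MTCYBP22 to MTCO1P22, 11 of 11 overlapped, with 97.0% shared where 71.0% is covered. In the other direction the run from MTCYBP22 to MTCO1P22 met 6 of 14 mitochondrial minus-strand loci, and 10.5% of the bases of these mitochondrial loci were shared, where the chromosome 1 run shared 59.8%. Over all copies, bases under opposite-strand loci aligned with mitochondrial positions that are themselves under an opposite-strand locus in 94.9% of 4895 aligned bases. For bases under same-strand loci the share was 59.9%, and for bases under neither it was 70.4%. This order did not hold throughout. Under same-strand loci the share was 43.0% in the chromosome 1 run. In the other insertions with 5 or more loci it was 81.7%, against 76.2% under neither. The remaining insertions stood at 47.8% against 70.0%. For copies of MT-ND6 the opposite strand is the mitochondrial plus strand, which 1 block covers, so their bases match whatever their loci. They hold 565 of the 4936 bases under opposite-strand loci, aligned or not. Neighbouring bases are not independent, so the shares carry no interval.

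Copies with a locus were more like the mitochondrial genes than those without. All but 13 copies aligned to the mitochondrial sequence, which was put together from the 37 GENCODE transcripts, and the 13 had no locus. Among aligned copies, median identity over the aligned part was 80.3% in the 78 with a same-strand locus and 75% in the 303 without. The longest run of bases without a difference had a median of 29 bases in copies with a same-strand locus and of 17 in all 316 copies without. Their transcripts had median lengths of 736.5 bases with such a locus and 663 without.

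At the upper end, every copy had one. All 21 copies with an identity of 90% or more, in 8 insertions, had a same-strand locus (interval 83.9 to 100%), and 18 of them an opposite-strand one too. Their same-strand loci covered 73.0% of their bases. Of these 21 copies, 7 form the chromosome 1 run under 1 same-strand locus, so they are not independent cases. From 80% to 90% identity, 20 of 42 copies had a same-strand locus (47.6%, 32.0 to 63.6), covering 10.1% of bases. Below 80%, 37 of 318 did (11.6%, 8.33 to 15.7), covering 0.619%. The copy most like its gene that had no locus on either strand stood at 85.9%.

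Runs without a difference gave the same order. Every copy with a run of 50 bases or more had a same-strand locus (16 of 16: 10 with runs of 50 to 99 bases and 6 with longer ones). All 6 of the latter, and MTATP8P1 among the 10, belong to the chromosome 1 run and lie under its 1 same-strand locus. They are therefore not independent cases. Of the 60 copies with a longest run of 25 to 49 bases, 33 had one (55%, 41.6 to 67.9), and of the 318 with shorter runs 29 did (9.12%, 6.19 to 12.8). That last share is near the 8.47% of all other pseudogenes, which were not matched for length. These 318 copies, the 13 that did not align among them, had a median transcript length of 651 bases. They are not the same set as the 318 aligned copies below 80% identity. Other pseudogenes stood at 3.91% for spans up to 500 bases and 5.95% from there to 1000. The longest run among all copies, 266 bases, was in MTND2P28, and the longest in a copy with no locus was 45, in MTND2P9 on chromosome 9.

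**Figure D5:**
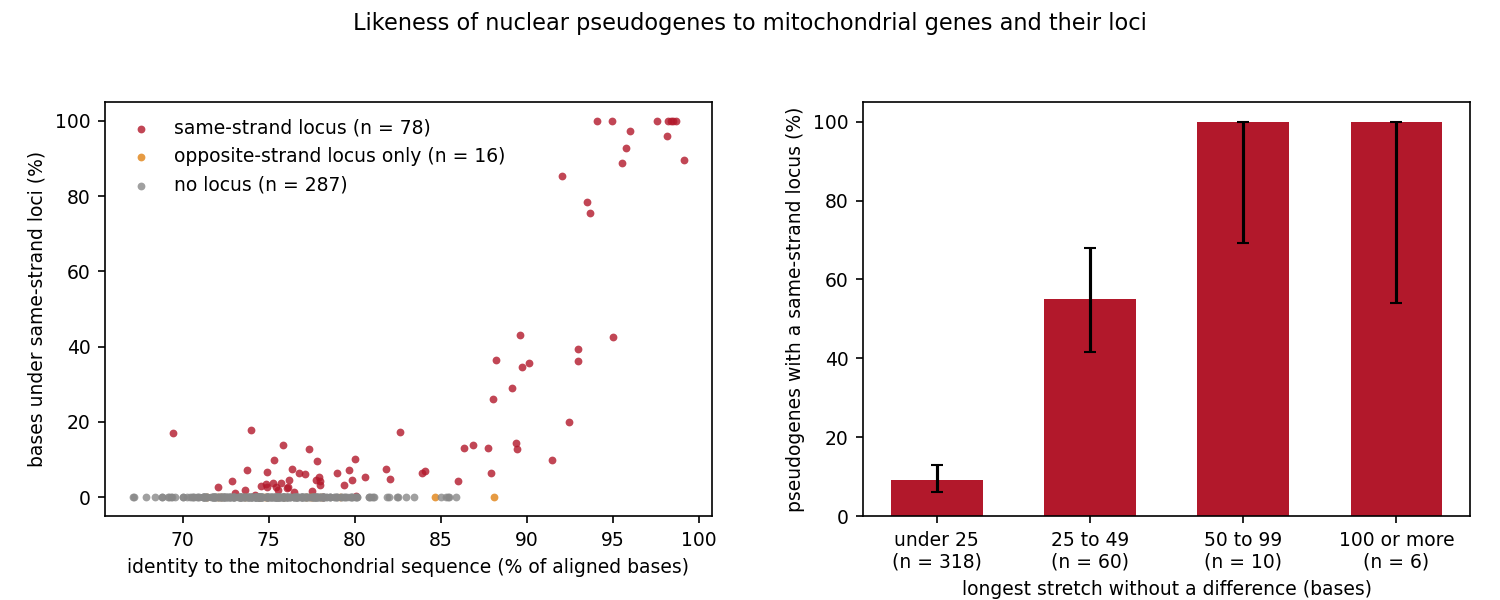
Left, identity of the 381 aligned copies to the mitochondrial sequence against the share of their bases under same-strand loci, 1 point per copy. Right, share of copies with a same-strand locus by their longest stretch without a difference, with exact 95% intervals, from 9.12% of the 318 copies with under 25 bases to all 16 with 50 or more. Of these 16, 7 belong to the chromosome 1 run and lie under 1 same-strand locus.

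Base by base, pooled over copies, the covered parts were more like the mitochondrial genome than the rest. Aligned bases under same-strand loci were identical in 93.8% and those under opposite-strand loci in 92.5%, against 75.9% for bases under neither. In the 6 insertions with 5 or more loci, without the chromosome 1 run, the values were 93.1% and 94.0% against 86.6%. In all other insertions they were 88.1% and 79.5% against 75.2%.

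Copies of all 13 protein genes had at least 1 member with a locus. MT-ATP8 has 2 copies, MTATP8P1 and MTATP8P2, and both lay wholly under same-strand loci. Of the genes with many copies, those of the complex I gene MT-ND5 (12 of 38, 31.6%, 17.5 to 48.7) and of MT-CO1 (13 of 45, 28.9%, 16.4 to 44.3) had the highest shares. Those of MT-CO2 (3 of 29, 10.3%, 2.19 to 27.4) and MT-ND2 (4 of 34, 11.8%, 3.3 to 27.5) had the lowest, and the intervals of all these overlap. Length differs too, with median spans of 1526.5 bases for MT-ND5 copies and 658 for MT-CO2 copies.

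Loci on a single copy lay on its own strand in 92 of 153 cases (60.1%, 51.9 to 67.9), and on the other strand in 61. This count leaves out the wide same-strand locus of the chromosome 1 run, which spans 7 copies. Without that run the share was 64.3% of 143 loci. For other pseudogenes the counts were 1542 and 738 (67.6%, 65.7 to 69.6). The copies with unequal numbers had mostly same-strand loci in 59 cases and mostly opposite-strand ones in 24 (71.1%, 60.1 to 80.5), against 70.9% of other pseudogenes. Without the chromosome 1 run the cases were 58 and 19 (75.3%, 64.2 to 84.4). In each class the interval of the copies included the share of the other pseudogenes. Among processed pseudogenes the share was 71.4% for the copies (56.7 to 83.4) and 79.3% for the others. Among unprocessed ones it was 70.6% (52.5 to 84.9) and 58.4%. These unprocessed copies include the chromosome 1 run, with mostly same-strand loci on 1 copy and mostly opposite-strand ones on 5.

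Nuclear genes whose proteins work with the mitochondrial ones are transcribed in the nucleus. For the respiratory chain and ATP synthase, 89 nuclear genes were picked by symbol, not all of them subunits. Of these, 58 carried in an exon a locus of their own strand (65.2%, 54.3 to 75), where 35.4% of other protein-coding genes did. ATP5F1B, which encodes the catalytic beta subunit of ATP synthase, had 6, and ATP5F1A (its alpha subunit), COX6C of complex IV and NDUFA13 of complex I had 4 each. The complex I genes NDUFA5, NDUFA10 and NDUFV1 and the ATP synthase gene ATP5F1E had none. For the mitochondrial ribosome the count was 31 of 78 (39.7%, 28.8 to 51.5), led by MRPS30 with 7 loci, followed by MRPL28 and MRPL51 with 3 each, while MRPS5, MRPS27, MRPL46 and MRPS23 had none.

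Genes that transcribe and process mitochondrial RNA had a locus in 11 of 22 cases (50%, 28.2 to 71.8), an interval that includes the 35.4% of other protein-coding genes. LRPPRC, which stabilises mitochondrial messages, had 5, and GRSF1, a protein of mitochondrial RNA granules, had 4. HSD17B10, a subunit of the mitochondrial enzyme that cuts tRNA 5′ ends, had 4, and TBRG4, a mitochondrial RNA-binding protein, had 2. KIAA0391, which encodes the catalytic subunit of the same enzyme, had none, nor did the mitochondrial polymerase POLRMT, its factor TFAM or the exonuclease gene PNPT1. The lists had median exonic lengths of 2326, 2539 and 4670.5 bases in the order given, against 4237 for other protein-coding genes.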

How the data were processed

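The authors deposited 1 BED list of loci for the series as a whole. Per the file name it was made with Piranha on the TCGA breast cancer cohort and collapsed. The submitters' processing notes name hg38, cutadapt, Bowtie2 2.2.8, SAMtools and bedtools. No source used here gives the version or threshold of Piranha, the number of samples or the treatment of reads with several matches. In the deposited list the score is 1 for every locus, and start and end, converted to 1-based positions, are the values used. None of the 9 libraries has a column, and no per-sample column was left unused (0).

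A gene was counted when a locus shared at least 1 base with its span, or, for protein-coding genes of the nucleus, with an exon (GENCODE 29). The transcripts of the copies were aligned with blastn (BLAST+ 2.17.0, word size 11, E-value of at most 1e-05) to the mitochondrial sequence joined from the GENCODE transcripts (15357 bases known, without the control region and the spacers), because no genome sequence was used here. Overlap counting was checked on planted loci. Computation used Python 3.11.15, numpy 2.4.6, pandas 2.3.3, scipy 1.17.1 and matplotlib 3.10.9.

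The members, lists and comparisons were chosen with earlier results of these data known. The naming rule covered all mitochondrial genes, copies with 2 or more same-strand loci, most covered bases or a locus of at least 100 bases, the chromosome 1 run, the copy of each gene with most covered bases and the longest without a locus, and up to 4 genes with most loci and 4 without from each nuclear list. MTCYBP16, MTND2P9, the end copies that name an insertion and the stretches printed as sequence were chosen after their values were seen.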

Additional observations from a re-analysis of the deposited data

How the results depend on the processing

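Of 88 alternative values over 24 results, 76 stayed within 1.5 times the count or within the interval or spread of the value reported. The other 12 include some in another unit (insertions for copies, bases for percentage points), which are given beside the reported value and are not a measure of change. The count of 37 mitochondrial genes fell to 0 on requiring 50% of the locus to lie in the gene, 0 on requiring all of it, and 0 with loci of 18 to 50 bases, since each rests on a wide locus, and with loci under 1000 bases only 2.69% of gene bases were covered in place of 100%. The 78 copies with a same-strand locus became 46 with loci wholly inside the gene, and 41 of 141 when copies within 20 kb counted as 1 insertion; for either strand, 94 became 50 of 141 insertions. Leaving out the insertions with 5 or more loci, chosen after seeing the data, left 46 and 61 copies. The same-strand share was 75% of insertions by majority, in place of 60.1% of loci. Loci of at least 150 bases made up 20% of those on copies. Copies with and without a locus differed in the share of identical bases by 7.89 percentage points (median), and in the longest run, added after seeing the data, by 12 bases. The alternatives for the nuclear lists and for the share of copies by parent gene stayed within those limits. No paired analysis was possible because no column of the list belongs to a library. The grid of 50 bases, the lack of any level and shared reads limit all results, and depth is unknown.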

Other observations

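No copy named by the rule derives from an rRNA gene, but 13 nuclear genes named MTRNR2L resemble MT-RNR2, the large-subunit rRNA gene, and are annotated mostly as protein-coding. They were looked at after the other values were seen. A same-strand locus lay on 12 of the 13, all but MTRNR2L13, with 34 loci in all, and an opposite-strand locus on 4, with 5 loci. Beside these counts, which were taken over the whole span, 8.47% of other pseudogenes had a same-strand locus in their span and 4.2% an opposite-strand one, and 35.4% of other protein-coding genes a same-strand one in an exon. MTRNR2L12 on chromosome 3 was covered over 84.5% of its span, MTRNR2L8 on chromosome 11 over 83.6% and MTRNR2L1 on chromosome 17, inside the insertion from MTCYBP13 to MTCO3P13, over 49.1% by 6 loci. Opposite-strand loci covered no more than 6.44% of any of them. MT-RNR2 itself lies wholly under the plus-strand block and has opposite-strand loci on 6.41% of its bases.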
